A study of Mus musculus with 15 samples.

Results

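The genes described are 32 members of cholesterol and fatty acid synthesis, followed through 5 lines of the mouse mammary carcinoma cell line 4T1. They were taken by symbol as 18 enzymes of the sterol pathway, 4 genes of its regulation and transport, and 10 enzymes of fatty acid synthesis. Each gene was read through its brightest probe set by mean over all arrays. Of the 32 members, 31 were measured, among 19937 genes tested in all. Acat2, the cytosolic acetoacetyl-CoA thiolase, had no probe set that named it alone and is not analysed here. The measured members were therefore 17 sterol enzymes, 4 regulators and transport genes and 10 fatty acid enzymes. None of the 31 had a line mean under 5.51 log2 units, the level below which a gene is called dim here.

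Cholesterol and fatty acids are both built from acetyl-CoA. In the mevalonate pathway acetyl-CoA is condensed and phosphorylated to isoprenyl units, which are joined to squalene, closed to lanosterol and trimmed to cholesterol. In the fatty acid branch acetyl-CoA is carboxylated, polymerised to palmitate, elongated and desaturated. Both branches are controlled by the sterol regulatory element binding proteins encoded by Srebf1 and Srebf2, which are held in the endoplasmic reticulum by Insig proteins when sterols are plentiful. The product of Srebf2 acts mainly on sterol genes, and that of Srebf1 more on fatty acid genes.

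The 5 lines, with 3 arrays each, were Tw1KD cells carrying Twist1 S42D, Tw1KD cells carrying Twist1 S42A, Tw1KD cells carrying wild-type Twist1 (the wild-type line), Tw1KD cells and parental 4T1 cells. Twist1 is a transcription factor of epithelial-mesenchymal transition. Tw1KD cells are 4T1 cells depleted of their own Twist1, and the 3 lines made from them received 1 form of Twist1 each, so all 3 also carry the depletion. S42A and S42D replace serine 42 of Twist1 by alanine and by aspartate. The genotype label of the S42D arrays names both substitutions, so that their identity rests on the sample titles. Growth was to 70% confluency under 2 drugs, per the protocols in the labels: puromycin at 4 µg/ml and G418 at 800 µg/ml, with no separate medium given for parental cells. How Twist1 was depleted and how the forms were introduced is not given in the sources used here. Whether a line is 1 clone or a pool, and whether the triplicates are separate cultures, is not stated, so that every p-value measures the spread between these arrays, which may be technical. Differences between lines can also be differences between clones, which cannot be told apart from the Twist1 form here.

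The values are log2 intensities, 1 per probe set, as the authors deposited them, and a difference of 1 log2 unit is a 2-fold change. Arrays of 1 line correlated at 0.997 to 0.999 and arrays of different lines at 0.975 to 0.987 across genes, which are not independent replicates. The number of arrays limits the precision. The Twist1 probe set read 9.07, 8.96 and 8.97 in the S42D line, 8.60, 8.71 and 8.80 in the S42A line, 8.35, 8.49 and 8.16 in the wild-type line, 7.47, 7.23 and 7.35 in Tw1KD cells and 9.01, 9.03 and 9.07 in parental cells. The groups did not overlap between Tw1KD cells and any other line, and Twist1 fell by 1.69 in Tw1KD cells against parental cells. Whether this probe set reads the introduced constructs as fully as the cell's own transcript is not known. Of the carcinoma markers, the keratins Krt8 and Krt18 were high in every line, with line means of 12.31 to 13.18. Krt19 averaged 8.62, 6.01 and 8.74 in the S42D, S42A and wild-type lines, 11.10 in Tw1KD cells and 10.07 in parental cells. Epcam averaged 5.63, 5.55, 5.66, 9.76 and 8.36 in that order. In the returns Epcam lay near the dim limit of 5.51, with replicate 1 of the S42D (5.49) and S42A (5.47) lines below it. The epithelial cadherin Cdh1 averaged 7.50 in the S42D line, 6.34 in the S42A line, 8.52 in the wild-type line, 11.46 in Tw1KD cells and 10.31 in parental cells. The leukocyte markers Ptprc and Adgre1, the endothelial markers Kdr and Tek and the adipocyte markers Adipoq, Fabp4 and Lep were dim in every line. Of the 6 macrophage and leukocyte markers Cd68, a lysosomal protein, averaged 10.71 in the S42D line, 10.27 in the S42A line, 9.80 in the wild-type line, 10.38 in Tw1KD cells and 8.50 in parental cells. Cd3e, Pecam1, Plin1 and Cidec also lay above the dim limit in every line, at means of 5.52 to 6.89. Csf1r was above it only in the S42D line (5.53), and Lyz2 only in the S42A line (5.74). Of the 4 endothelial markers Cdh5 averaged 10.67 in the S42D line, 7.26 in the S42A line, 6.35 in the wild-type line, 5.99 in Tw1KD cells and 5.66 in parental cells.

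Promoter windows of 300 bases, from 250 before to 50 after the annotated start, were available for 25 of the 32 members in RefSeq's table for GRCm38.p6. The windows of Fdps, Fdft1, Sqle, Stard4, Scd1, Scd2 and Fads1 were not analysed here. The 250 bases before the start are shown for 4 members that differ in how they behaved: Hmgcs1, the one member with the searched sterol regulatory element, Hsd17b7, the member with the largest rise, Elovl6, the fatty acid enzyme with the largest rise, and Tm7sf2, which moved against the others. Capitals mark the letters CCAAT, the box bound by NF-Y, on either strand (ATTGG where it lies on the other strand) and the sterol regulatory element TCACNCCAC. Each is written 5′ to 3′ on the gene's own strand.
Hmgcs1, chr13:119690101-119690350, plus strand: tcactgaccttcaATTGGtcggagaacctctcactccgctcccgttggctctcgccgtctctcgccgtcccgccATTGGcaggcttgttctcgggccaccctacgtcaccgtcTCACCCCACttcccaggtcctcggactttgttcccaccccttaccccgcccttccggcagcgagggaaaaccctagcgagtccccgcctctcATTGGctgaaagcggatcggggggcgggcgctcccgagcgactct
Hsd17b7, chr1:169969206-169969455, minus strand: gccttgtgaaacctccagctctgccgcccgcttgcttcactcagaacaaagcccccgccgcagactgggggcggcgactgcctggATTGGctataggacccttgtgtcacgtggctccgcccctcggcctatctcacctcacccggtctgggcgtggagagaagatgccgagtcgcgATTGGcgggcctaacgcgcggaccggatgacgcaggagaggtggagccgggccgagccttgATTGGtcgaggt
Elovl6, chr3:129532136-129532385, plus strand: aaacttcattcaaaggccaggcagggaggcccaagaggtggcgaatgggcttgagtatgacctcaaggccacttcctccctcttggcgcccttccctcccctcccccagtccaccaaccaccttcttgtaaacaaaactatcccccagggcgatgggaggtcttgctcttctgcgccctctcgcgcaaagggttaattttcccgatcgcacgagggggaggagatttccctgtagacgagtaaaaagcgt
Tm7sf2, chr19:6067851-6068100, minus strand: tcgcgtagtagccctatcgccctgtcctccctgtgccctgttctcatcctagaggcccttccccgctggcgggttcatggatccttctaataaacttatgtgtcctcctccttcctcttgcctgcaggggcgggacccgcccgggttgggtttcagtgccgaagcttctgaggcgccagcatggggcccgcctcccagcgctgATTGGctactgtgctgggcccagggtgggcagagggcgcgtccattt

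The 25 members had 31 windows, since some genes have several annotated starts. CCAAT on either strand occurred in the windows of 21 of 25 members, and in 22 of 31 windows (71.0%) against 37.4% of all 32851 windows of the table. All but 1 of the 15 sterol enzymes with a window held it, as did 3 of 3 regulators and 4 of 7 fatty acid enzymes. The exceptions were Acat2, Acaca, Elovl6 and Fads2. Hsd17b7 held 3 copies and Tm7sf2 held 1. The Sp1 box GGGCGG, searched on both strands, occurred in 23 of 31 windows against 35.7% of all windows, and against 49.2% of the windows of genes tested on the arrays. TCACNCCAC on either strand was found for Hmgcs1 only and in 1.24% of all windows. Only this exact pattern was searched, so sterol regulatory elements with other letters would be missed in the other members. The E-box CANNTG occurred in 22 of 31 member windows (71.0%) against 72.3% of all windows. Its form CATCTG, which CANNTG includes and which Twist proteins are known to bind, occurred in 5 of 31 against 17.2%. The matches describe these windows only.

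**Figure D1:**
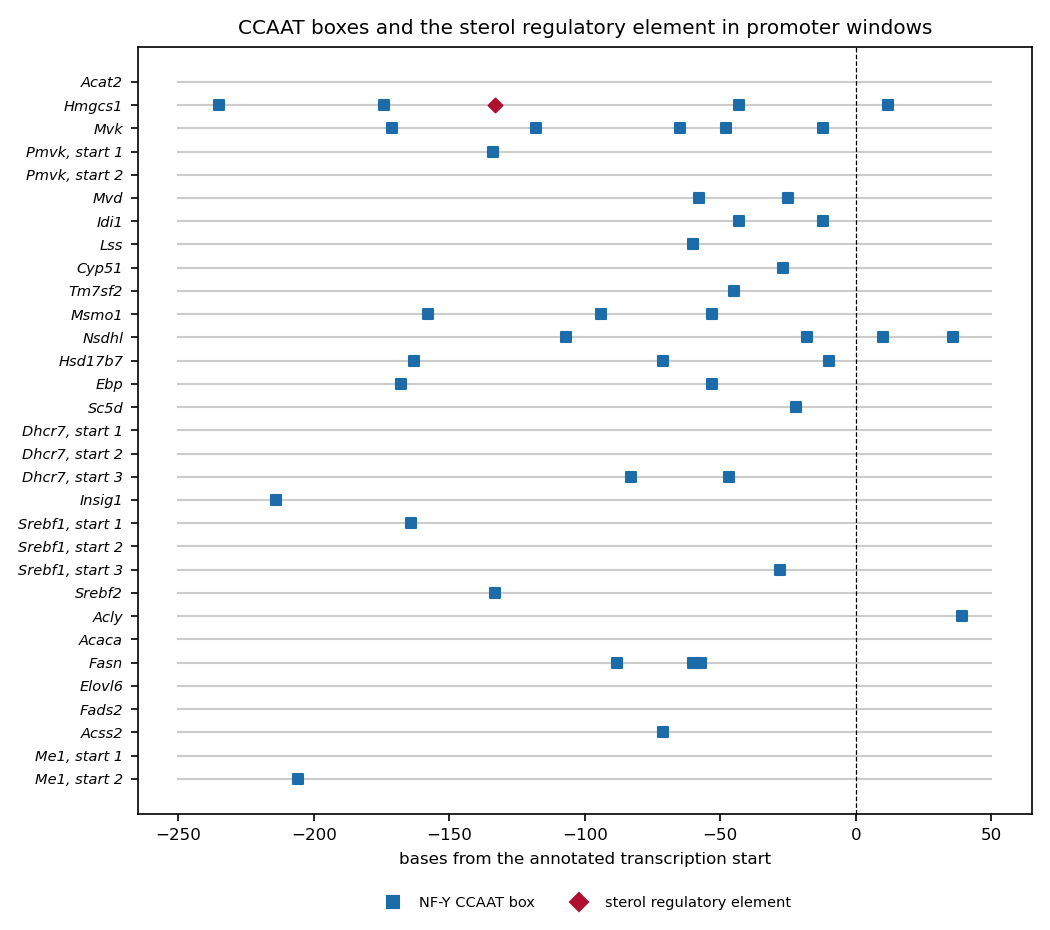
Position of CCAAT (squares) and of the exact pattern TCACNCCAC of the sterol regulatory element (diamond), on either strand, in the promoter windows of 25 members. Each annotated start has 1 grey line, in bases from the start (dashed line). The 4 members without a CCAAT square are Acat2, Acaca, Elovl6 and Fads2, and the 1 diamond belongs to Hmgcs1.

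Depletion of Twist1 went with lower transcripts on both arms of the module. In Tw1KD cells against parental cells 25 of 31 members fell, 3 rose (Tm7sf2, Ebp and Scd1) and 3 were not called (Mvd, Sc5d and Acly), by limma's test at an adjusted p under 0.05. Mvd (-0.25) and Acly (-0.13) were called lower under quantile normalization, and Acly also without replicate 2 of parental cells. Over all genes tested 16.4% were called lower and 19.9% higher. Of the sterol enzymes 13 fell and 2 rose of 17, of the fatty acid enzymes 8 fell and 1 rose of 10, and 4 of 4 regulators fell. The median difference was -0.47 over the sterol enzymes and -0.42 over the fatty acid enzymes, against 0.01 over all genes. The largest falls were in Idi1 (-1.22 ± 0.080, SE), Hsd17b7 (-1.14 ± 0.053), Elovl6 (-1.10 ± 0.046), Insig1 (-1.08 ± 0.043) and Hmgcs1 (-1.06 ± 0.051). The fall of Stard4 (-0.26) lost its call without replicate 1 or 3 of parental cells or replicate 2 of Tw1KD cells, with -0.20 as its smallest value.

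Return of Twist1 went with higher transcripts of most members, and with the wild-type and S42A forms the median difference of the sterol arm was larger than that of the fatty acid arm. In the wild-type Twist1 line against Tw1KD cells 29 of 31 members rose, 1 fell (Tm7sf2) and Scd1 was not called, where 23.5% of all genes were called higher and 24.5% lower. The median difference was 1.09 over the sterol enzymes, 0.98 over the regulators and 0.40 over the fatty acid enzymes, against -0.06 over all genes. In the S42A line against Tw1KD cells 28 rose and 3 fell (Tm7sf2, Ebp and Scd1), where 22.8% of all genes were called higher and 19.7% lower. Medians there were 1.11 for the sterol enzymes, 1.01 for the regulators and 0.70 for the fatty acid enzymes. In the S42D line against Tw1KD cells 25 rose, 2 fell (Tm7sf2 and Scd1) and 4 were not called (Mvd, Sqle, Msmo1 and Ebp), where 21.7% of all genes were called higher and 21.7% lower. Medians there were 0.46 for the sterol enzymes, 0.74 for the regulators and 0.35 for the fatty acid enzymes. The median sterol difference in that comparison was 0.37 without replicate 2 of Tw1KD cells, the array with the lowest sterol values of its line. These 4 comparisons, the depletion included, share the Tw1KD arrays, so they are not independent of each other.

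**Figure D2:**
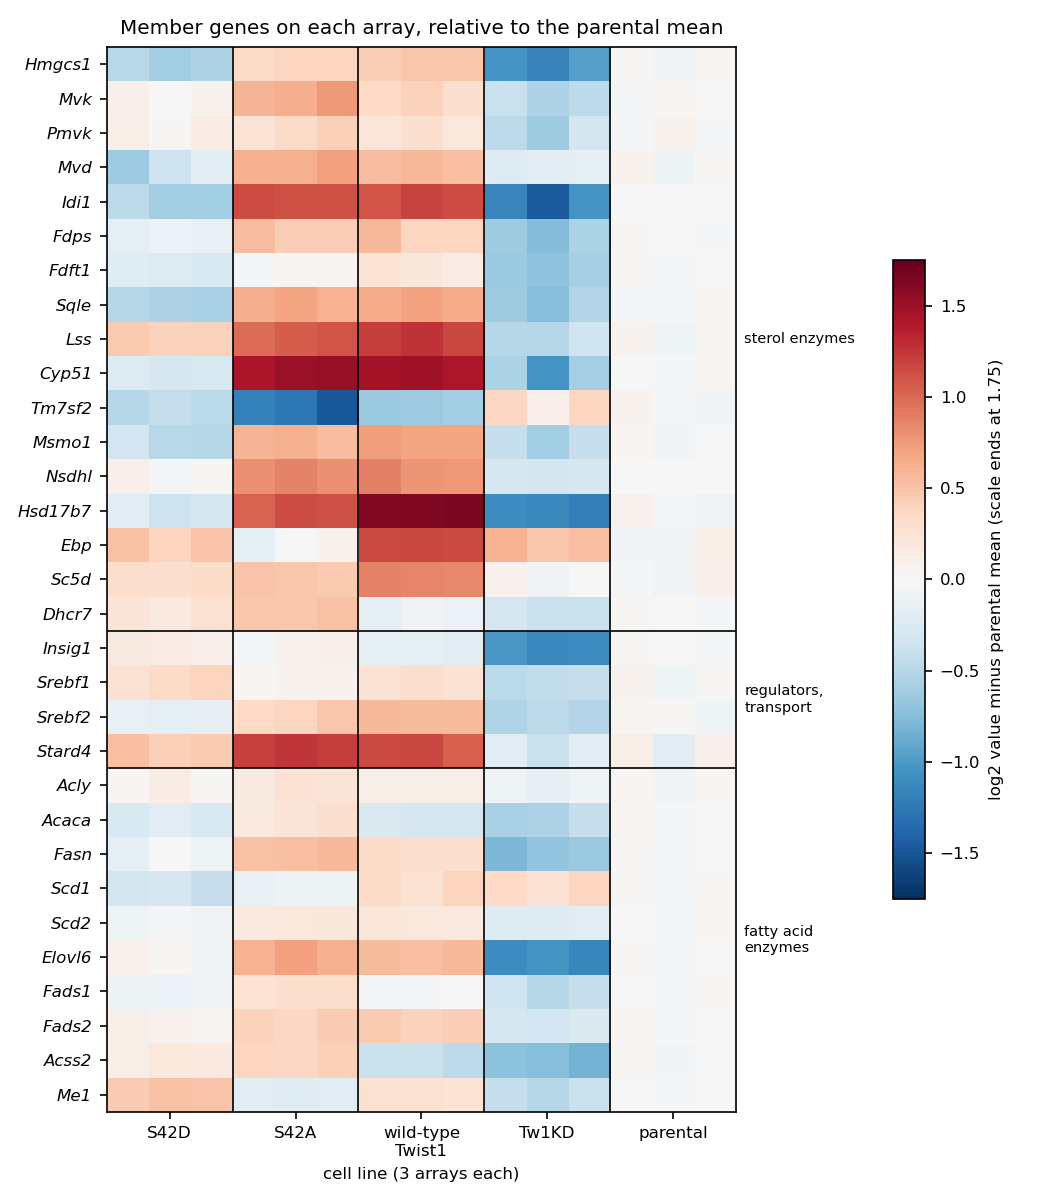
The 31 measured members (rows, grouped as sterol enzymes, regulators and transport, and fatty acid enzymes) on each of the 15 arrays (columns, 3 per line), as log2 value minus the mean of the parental arrays. Red is above and blue below the parental mean. Most sterol rows are red in the S42A and wild-type Twist1 columns and blue in the Tw1KD columns, the S42D columns hold both colours, and Tm7sf2 is blue in all 3 returns.

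By line means Tw1KD cells were lowest of the 5 lines for 14 of 17 sterol enzymes, 4 of 4 regulators and 9 of 10 fatty acid enzymes. The highest line differed between the arms: for sterol enzymes it was the wild-type Twist1 line in 9 cases, the S42A line in 7 and Tw1KD cells in 1, and for fatty acid enzymes the S42A line in 6, the wild-type Twist1 line in 3 and the S42D line in 1. The shares of all genes with each line lowest or highest were not computed, so these counts have no background to be read against. Members called lower in Tw1KD cells than in parental cells and higher than in Tw1KD cells in all 3 re-expressing lines numbered 23 of 31, against 6.82% of all genes. They were 11 of 17 sterol enzymes, 4 of 4 regulators and 8 of 10 fatty acid enzymes.

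Among the early mevalonate enzymes Hmgcs1 and Idi1 changed most. Hmgcs1, which makes HMG-CoA, read 9.91, 9.79 and 9.85 in the S42D line, 10.73, 10.77 and 10.78 in the S42A line, 10.83, 10.88 and 10.88 in the wild-type line, 9.35, 9.23 and 9.43 in Tw1KD cells and 10.41, 10.36 and 10.43 in parental cells. No 2 lines overlapped, but the S42A and wild-type lines lay close and their difference was not called (-0.10 ± 0.051, adjusted p = 0.13). Idi1, the isomerase that converts isopentenyl to dimethylallyl diphosphate, read 9.45, 9.30 and 9.31 in the S42D line, 11.05, 11.02 and 11.03 in the S42A line, 11.00, 11.09 and 11.05 in the wild-type line, 8.76, 8.45 and 8.86 in Tw1KD cells and 9.90, 9.91 and 9.92 in parental cells. The S42A and wild-type arrays overlapped and stood more than 1 log2 unit above parental cells, while the S42D arrays stood below parental cells and above Tw1KD cells. Against Tw1KD cells Idi1 was 1.58-fold higher in the S42D line (0.66 ± 0.080, adjusted p = 8.1e-06), 5.07-fold higher in the S42A line (2.34 ± 0.080) and 5.13-fold higher in the wild-type line (2.36 ± 0.080, adjusted p = 1.5e-11). A second, dimmer probe set for Idi1 gave 0.64, 2.39 and 2.49 for the same 3 differences.

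The 2 mevalonate kinases, Mvk and Pmvk, changed less. Mvk, which phosphorylates mevalonate, was 9.18 ± 0.04 in the S42D line, 9.80 ± 0.09 in the S42A line, 9.47 ± 0.06 in the wild-type line, 8.67 ± 0.07 in Tw1KD cells and 9.13 ± 0.03 in parental cells (SD). It was higher in the S42A than in the wild-type line (0.32 ± 0.053, adjusted p = 1.7e-04), one of 2 sterol enzymes of which this held. Pmvk, which adds the next phosphate, rose in all 3 returns by 0.55 to 0.80 and was not called between the S42D and wild-type lines (-0.14 ± 0.069, adjusted p = 0.14). It was called lower in the S42D line under median centring (-0.23, adjusted p = 0.021), quantile normalization (-0.18) and a fit of these 2 lines alone (adjusted p = 0.042). Mvd, the mevalonate diphosphate decarboxylase, read 8.05, 8.32 and 8.50 in the S42D line, 9.30, 9.31 and 9.40 in the S42A line, 9.22, 9.26 and 9.20 in the wild-type line, 8.46, 8.48 and 8.52 in Tw1KD cells and 8.75, 8.59 and 8.71 in parental cells. Its S42D arrays were the most spread, overlapped with Tw1KD cells and gave no call (-0.20 ± 0.084, adjusted p = 0.077), while it rose in the S42A (0.85) and wild-type (0.74) lines. Without replicate 3 of the S42D line the S42D difference was -0.30 and called lower (adjusted p = 0.0043), and under median centring it was -0.24 and called. Fdps, the farnesyl diphosphate synthase, rose by 0.51 with S42D, 1.11 with S42A and 1.09 with the wild-type form.

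The largest rise of the module, that of Hsd17b7, lay among the enzymes from squalene onward. Fdft1, the squalene synthase, rose by 0.40, 0.66 and 0.83 in the S42D, S42A and wild-type lines against Tw1KD cells. Sqle, the squalene epoxidase and a rate-limiting step, read 10.36, 10.31 and 10.29 in the S42D line, 11.49, 11.54 and 11.46 in the S42A line, 11.50, 11.56 and 11.50 in the wild-type line, 10.23, 10.11 and 10.34 in Tw1KD cells and 10.84, 10.84 and 10.90 in parental cells. The S42D and Tw1KD arrays of Sqle overlapped (0.09 ± 0.053, adjusted p = 0.18), whereas the S42A and wild-type arrays lay above parental cells. Without replicate 3 of Tw1KD cells the difference was 0.15 and called (adjusted p = 0.024). Sqle was lower in the S42D than in the wild-type line (-1.20 ± 0.053, adjusted p = 2.0e-10). Lss, which closes squalene epoxide to lanosterol, differed from Sqle in the S42D line, where it was above parental cells (0.42 ± 0.052, adjusted p = 1.4e-05).

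Cyp51, the lanosterol demethylase, read 8.47, 8.41 and 8.44 in the S42D line, 10.15, 10.22 and 10.23 in the S42A line, 10.17, 10.19 and 10.13 in the wild-type line, 8.16, 7.66 and 8.12 in Tw1KD cells and 8.72, 8.67 and 8.75 in parental cells. Replicate 2 of Tw1KD cells stood below the other 2 arrays of its line. The S42A and wild-type arrays overlapped with each other and with no other line. Against Tw1KD cells Cyp51 was 1.38-fold higher in the S42D line (0.46 ± 0.096, adjusted p = 0.0011), 4.65-fold higher in the S42A line (2.22 ± 0.096) and 4.53-fold higher in the wild-type line (2.18 ± 0.096, adjusted p = 1.8e-10). Hsd17b7, the keto reductase of the steps that remove the methyl groups at the fourth carbon, read 9.37, 9.19 and 9.25 in the S42D line, 10.58, 10.69 and 10.67 in the S42A line, 11.18, 11.18 and 11.20 in the wild-type line, 8.46, 8.42 and 8.36 in Tw1KD cells and 9.63, 9.53 and 9.49 in parental cells. No 2 lines overlapped. Against Tw1KD cells Hsd17b7 was 1.81-fold higher in the S42D line (0.86 ± 0.053), 4.70-fold in the S42A line (2.23 ± 0.053) and 6.83-fold in the wild-type line (2.77 ± 0.053, adjusted p = 7.2e-14). Msmo1 and Nsdhl, which act with it, differed in the S42D line, where Nsdhl rose by 0.32 and Msmo1 was not called (0.03 ± 0.060, adjusted p = 0.7). They rose by 1.06 and 1.11 with S42A and by 1.18 and 1.10 with the wild-type form.

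**Figure D3:**
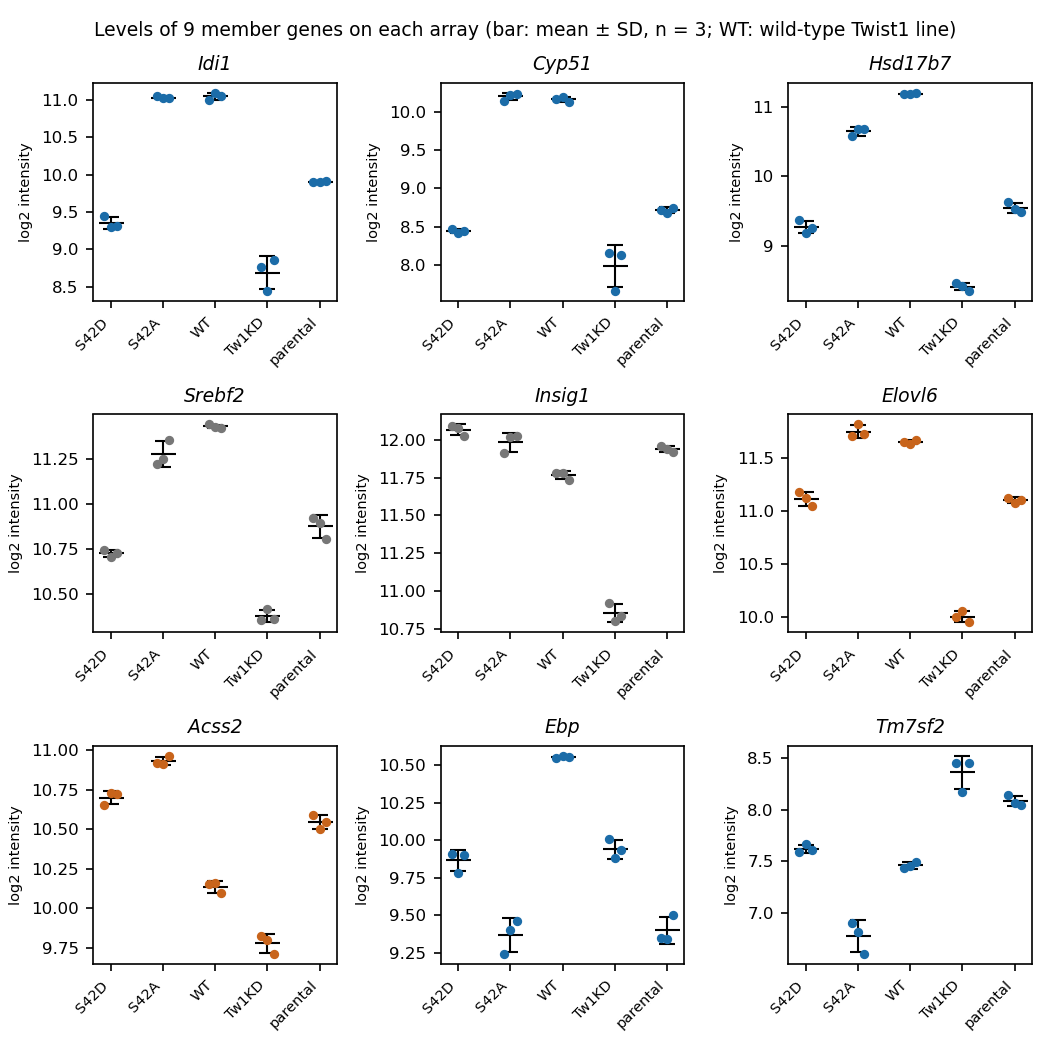
Log2 intensity of 9 members on each array, with the mean and SD of the 3 arrays of each line (blue sterol enzymes, grey regulators, orange fatty acid enzymes). Each panel has its own vertical scale, and WT is the wild-type Twist1 line. Idi1, Cyp51 and Hsd17b7 are high in the S42A and WT lines, Insig1 and Elovl6 are lowest in Tw1KD cells, and Ebp is highest in WT.

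Tm7sf2, Ebp, Sc5d and Dhcr7 did not move as a block. Tm7sf2, a sterol reductase whose activity is shared with the lamin B receptor, read 7.59, 7.66 and 7.61 in the S42D line, 6.90, 6.81 and 6.60 in the S42A line, 7.43, 7.45 and 7.49 in the wild-type line, 8.45, 8.18 and 8.46 in Tw1KD cells and 8.14, 8.07 and 8.04 in parental cells. It was highest in Tw1KD cells and lowest in the S42A line. Tm7sf2 was the one sterol enzyme that fell in all 3 returns, with differences of -0.74 in the S42D, -1.59 in the S42A and -0.90 in the wild-type line. Its rise in Tw1KD cells (0.28 ± 0.080, adjusted p = 0.013) lost its call without replicate 1 or replicate 3 of Tw1KD cells, at 0.23 in both cases. Ebp, the sterol isomerase also called emopamil binding protein, read 9.91, 9.78 and 9.90 in the S42D line, 9.24, 9.40 and 9.46 in the S42A line, 10.55, 10.56 and 10.55 in the wild-type line, 10.01, 9.88 and 9.93 in Tw1KD cells and 9.35, 9.34 and 9.50 in parental cells. It rose in Tw1KD cells against parental cells (0.54 ± 0.062), was not called with S42D against Tw1KD cells (-0.07 ± 0.062, adjusted p = 0.37), fell with S42A (-0.57 ± 0.062) and rose with wild-type Twist1 (0.61 ± 0.062). Sc5d, the lathosterol desaturase, did not differ by the test between Tw1KD and parental cells (adjusted p = 0.99) and was higher than in Tw1KD cells in every return, by 0.31, 0.48 and 0.85 in the S42D, S42A and wild-type lines. Dhcr7, which makes cholesterol from its 7-dehydro precursor, rose least with the wild-type form, with 0.58 in the S42D, 0.85 in the S42A and 0.25 in the wild-type line.

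The 2 regulator genes Srebf2 and Srebf1 were ordered differently across lines. Srebf2, whose protein drives sterol genes, read 10.75, 10.71 and 10.73 in the S42D line, 11.22, 11.25 and 11.36 in the S42A line, 11.44, 11.43 and 11.43 in the wild-type line, 10.35, 10.42 and 10.36 in Tw1KD cells and 10.93, 10.90 and 10.81 in parental cells. The 5 lines did not overlap, and the order from high to low was wild-type Twist1, S42A, parental, S42D and Tw1KD. Srebf2 was lower in the S42D than in the wild-type line (-0.71 ± 0.044, adjusted p = 7.3e-09) and than in the S42A line (-0.55 ± 0.044). The neighbouring S42D and parental levels differed by -0.15 ± 0.044 (adjusted p = 0.016), a call lost without replicate 1 or 2 of parental cells or replicate 2 of the S42D line, at -0.14 to -0.13. Srebf1, whose protein acts more on fatty acid genes, was 10.01 ± 0.07 in the S42D line, 9.75 ± 0.01 in the S42A line, 9.96 ± 0.03 in the wild-type line, 9.25 ± 0.03 in Tw1KD cells and 9.69 ± 0.07 in parental cells (SD). The S42D and wild-type arrays of Srebf1 overlapped (0.05 ± 0.046, adjusted p = 0.47).

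Insig1, itself a sterol-regulated gene that retains the binding proteins, read 12.09, 12.08 and 12.03 in the S42D line, 11.91, 12.02 and 12.02 in the S42A line, 11.78, 11.78 and 11.74 in the wild-type line, 10.92, 10.81 and 10.84 in Tw1KD cells and 11.96, 11.94 and 11.92 in parental cells. Tw1KD cells stood below every other line, and the S42A and parental arrays overlapped. Unlike most sterol enzymes Insig1 was higher in the S42D than in the wild-type line (0.30 ± 0.043, adjusted p = 3.9e-05), and the S42D and S42A lines were not separated by the test (0.08 ± 0.043, adjusted p = 0.17). Stard4, a carrier of cholesterol between membranes, rose by 0.73, 1.48 and 1.39 in the S42D, S42A and wild-type lines against Tw1KD cells. It stood above parental cells in all 3, with 0.46 in the S42D line.

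Among the fatty acid enzymes Elovl6, which elongates palmitate to stearate, changed most. It read 11.18, 11.12 and 11.05 in the S42D line, 11.70, 11.82 and 11.72 in the S42A line, 11.65, 11.63 and 11.67 in the wild-type line, 10.00, 10.06 and 9.95 in Tw1KD cells and 11.13, 11.07 and 11.10 in parental cells. Tw1KD cells were lowest, the S42D and parental arrays overlapped and the S42A and wild-type arrays were highest. Against Tw1KD cells Elovl6 was 2.16-fold higher in the S42D line (1.11 ± 0.046), 3.35-fold in the S42A line (1.74 ± 0.046) and 3.13-fold in the wild-type line (1.65 ± 0.046, adjusted p = 1.9e-12). Fasn, the fatty acid synthase, was 11.36 ± 0.08 in the S42D line, 11.98 ± 0.03 in the S42A line, 11.76 ± 0.02 in the wild-type line, 10.74 ± 0.07 in Tw1KD cells and 11.45 ± 0.03 in parental cells (SD). Its rises against Tw1KD cells were 0.62, 1.24 and 1.02 with the S42D, S42A and wild-type forms.

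Acss2 and Acaca, which supply acetyl-CoA and malonyl-CoA, were higher in the S42A than in the wild-type line. Acss2, which makes acetyl-CoA from acetate, read 10.65, 10.73 and 10.72 in the S42D line, 10.92, 10.91 and 10.96 in the S42A line, 10.15, 10.16 and 10.09 in the wild-type line, 9.83, 9.80 and 9.71 in Tw1KD cells and 10.59, 10.50 and 10.55 in parental cells. The order from high to low was S42A, S42D, parental, wild-type Twist1 and Tw1KD, and no 2 lines overlapped. The call of S42D above parental cells was lost under quantile normalization (0.088) and without replicate 2 of parental cells (0.13). Acss2 was 1.74-fold higher in the S42A than in the wild-type line (0.80 ± 0.043, adjusted p = 2.6e-09) and higher in the S42D than in the wild-type line (0.56 ± 0.043). Acaca, the acetyl-CoA carboxylase, was higher in the S42A than in the wild-type line (0.51 ± 0.049, adjusted p = 9.8e-07), with 0.54 by its second probe set. The S42D and wild-type lines were not separated for Acaca (0.04 ± 0.049, adjusted p = 0.59). Acly, which makes acetyl-CoA from citrate, rose by 0.16, 0.31 and 0.20 in the S42D, S42A and wild-type lines, and the first lost its call without replicate 2 of the S42D line, at 0.12. Me1, the malic enzyme that yields NADPH, had its own order, with 10.92 ± 0.04 in the S42D line, 10.24 ± 0.01 in the S42A line, 10.69 ± 0.02 in the wild-type line, 10.00 ± 0.06 in Tw1KD cells and 10.43 ± 0.02 in parental cells (SD). A second, dimmer probe set for Me1 placed the S42A line above parental cells (0.06), where the brightest placed it below (-0.19). That call was lost with the mean of all probe sets (-0.07). In the wild-type line against parental cells the second probe set gave 0.65, and the brightest 0.26.

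The desaturases differed from each other. Scd1, a stearoyl-CoA desaturase, was 11.52 ± 0.06 in the S42D line, 11.76 ± 0.01 in the S42A line, 12.20 ± 0.06 in the wild-type line, 12.19 ± 0.06 in Tw1KD cells and 11.86 ± 0.03 in parental cells (SD). Scd1 rose in Tw1KD cells (0.32) and fell with S42A (-0.42) and S42D (-0.66), and its wild-type and Tw1KD arrays overlapped. Its paralog Scd2 lay at 12.64 to 13.07 on all arrays, near the array maxima of 13.90 to 14.02, where differences can be compressed, and rose by 0.15, 0.39 and 0.40 in the S42D, S42A and wild-type lines. Fads1 and Fads2, which desaturate polyunsaturated fatty acids, rose in each return, Fads1 by 0.33, 0.69 and 0.40 and Fads2 by 0.37, 0.70 and 0.72 in the same order.

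Between the Twist1 forms the S42D line had the lower sterol transcripts. In the S42D against the wild-type line 21 of 31 members were lower, 4 higher (Dhcr7, Insig1, Acss2 and Me1) and 6 not called, where 22.6% of all genes were called lower and 20.7% higher. Of the sterol enzymes 14 of 17 were lower with a median difference of -0.77, and of the fatty acid enzymes 5 of 10 were lower and 2 higher with a median of -0.16. The largest differences were in Hsd17b7 (-1.92 ± 0.053), Cyp51 (-1.72 ± 0.096) and Idi1 (-1.70 ± 0.080). In the S42D against the S42A line 26 were lower, 4 higher (Tm7sf2, Ebp, Srebf1 and Me1) and Insig1 was not called, where 19.1% of all genes were called lower and 17.1% higher. The sterol median there was -0.62 and the fatty acid median -0.28. The calls of Pmvk and Acly in that comparison were each lost without 1 of 2 arrays: for Pmvk replicate 3 of the S42A line or replicate 2 of the S42D line, for Acly replicate 2 of the S42A line or replicate 3 of the S42D line. Members lower in the S42D line than in both others were 13 of 17 sterol enzymes, 2 of 4 regulators (Srebf2 and Stard4) and 5 of 10 fatty acid enzymes (Fasn, Scd1, Scd2, Elovl6 and Fads2), against 12.1% of all genes. The Twist1 probe set was highest of the 3 returns in the S42D line, by 0.29 over the S42A and 0.67 over the wild-type line.

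The S42A and wild-type lines differed in fewer members. Of 31 members 7 were higher in S42A, 10 lower and 14 not called, where 20.0% of all genes were called higher and 20.0% lower. Medians were -0.03 over the sterol enzymes and 0.10 over the fatty acid enzymes, against 0.04 over all genes. The differences of Idi1 (-0.02 ± 0.080), Cyp51 (0.04 ± 0.096), Nsdhl (0.01 ± 0.043) and Sqle (-0.03 ± 0.053) were not called, and their arrays overlapped. The larger ones were Ebp (-1.19 ± 0.062), Acss2 (0.80 ± 0.043), Tm7sf2 (-0.69 ± 0.080), Dhcr7 (0.60 ± 0.042) and Hsd17b7 (-0.54 ± 0.053). The lower values of Lss (-0.17) and Srebf2 (-0.16) lost their calls without replicate 1 of the S42A line, and that of Lss also without replicate 2 of the wild-type line. Acly was called higher in the S42A line under 4 alternatives, with 0.14 under quantile normalization. Msmo1 (-0.12) gained a call in a fit of these 2 lines alone, and Elovl6 (0.096) with a trend and robust eBayes.

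**Figure D4:**
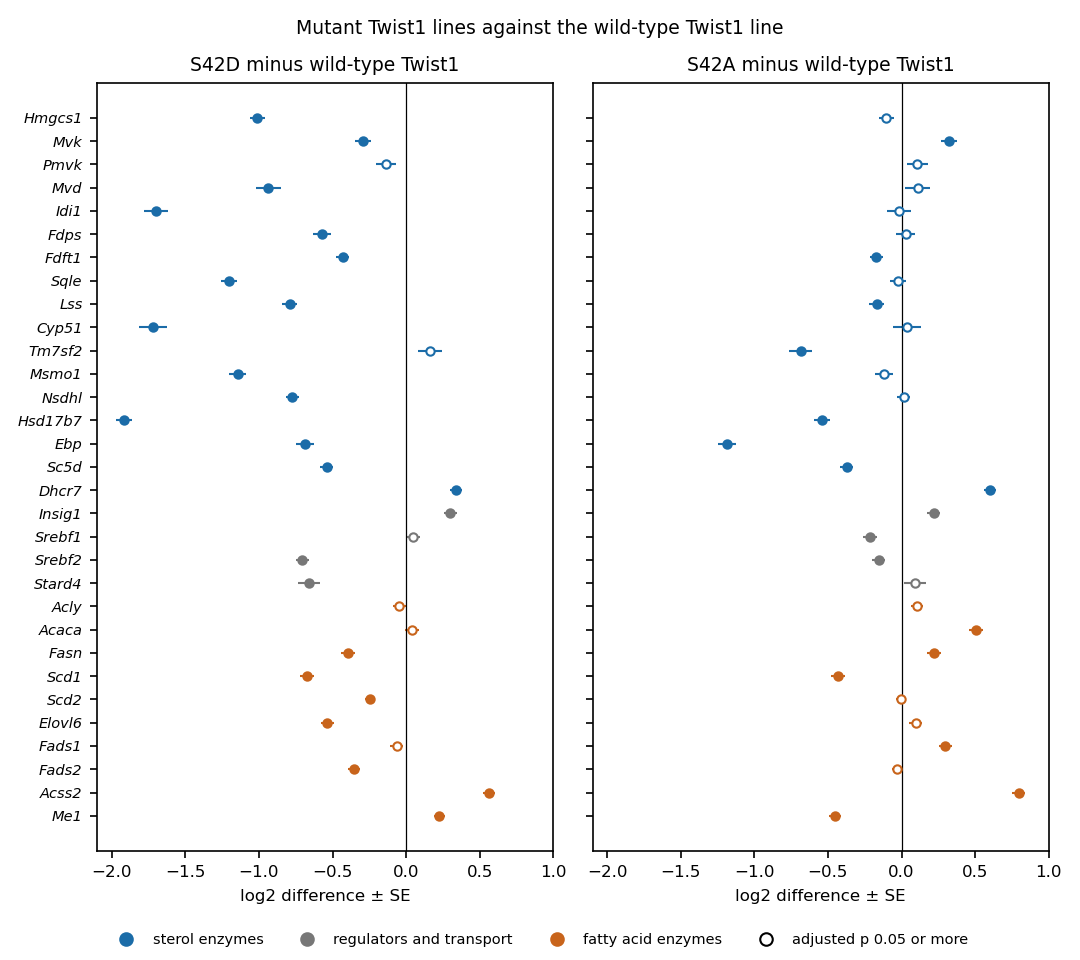
Log2 difference ± SE of each member in the S42D line (left) and the S42A line (right) against the wild-type Twist1 line, n = 3 arrays per line, filled where limma's adjusted p was under 0.05. On the left 14 of 17 sterol enzymes (blue) are filled below 0, with Hsd17b7 lowest at -1.92, and on the right 9 of 17 are open, with Ebp at -1.19, Tm7sf2 at -0.69, Hsd17b7 at -0.54 and Dhcr7 at 0.60 farthest from 0.

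Set against parental cells, the returned forms placed the sterol arm on different sides. The wild-type line had 24 members higher, 5 lower and 2 not called, where 25.0% of all genes were called higher and 24.0% lower, and medians of 0.67 for sterol and 0.22 for fatty acid enzymes. The S42A line had 24 higher, 2 lower and 5 not called, where 22.6% were called higher and 17.7% lower, and medians of 0.59 and 0.25 in the same order. The S42D line had 9 higher, 12 lower and 10 not called, where 19.8% of all genes were called higher and 17.2% lower, and medians of -0.24 and -0.02. Of the sterol enzymes 9 were below parental cells in the S42D line and 4 above (Lss, Ebp, Sc5d and Dhcr7), while 6 of 10 fatty acid enzymes gave no call. Of these Fasn (-0.16) and Fads1 (-0.17) were called lower under quantile normalization, as was the sterol enzyme Fdps (-0.21). The enzymes Hmgcs1, Mvd, Idi1, Sqle, Cyp51, Msmo1 and Hsd17b7, and the regulator Srebf2, were above parental cells in the wild-type and S42A lines and below them in the S42D line, which was so for 1.18% of all genes. No fatty acid enzyme did this. The S42D call of Cyp51 (-0.27 ± 0.096, adjusted p = 0.04) was lost when any 1 of the 6 arrays was left out, with differences of -0.29 to -0.25, and that of Insig1 (0.13, adjusted p = 0.033) for 5 of the 6. Quantile normalization put this Insig1 difference at 0.037, also with no call. In the wild-type line the lower value of Dhcr7 (-0.11, adjusted p = 0.038) lost its call without replicate 1 or 2 of parental cells or replicate 1 or 3 of the wild-type line, and was -0.011 under median centring. The higher value of Pmvk (0.22, adjusted p = 0.015) lost its call without replicate 1 of parental cells or replicate 2 of the wild-type line. The lower value of Insig1 there (-0.17) was -0.072 under median centring and no longer called.

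**Figure D5:**
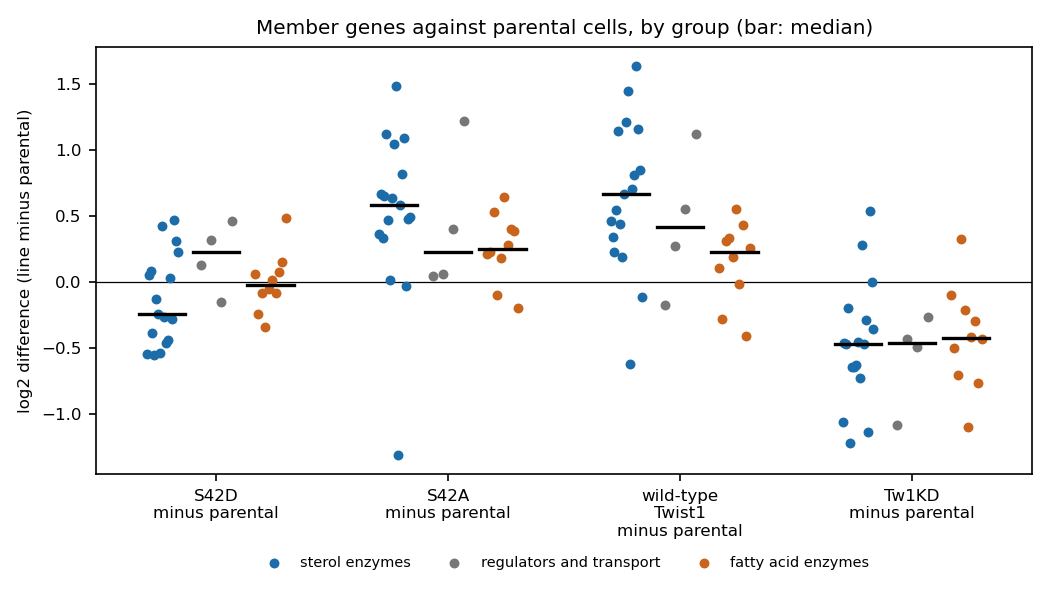
Log2 difference from parental cells of each member (points) in the S42D, S42A, wild-type Twist1 and Tw1KD lines, by group, with the group median as a bar. The sterol median is -0.24 in S42D, 0.59 in S42A, 0.67 in wild-type Twist1 and -0.47 in Tw1KD, and the fatty acid medians are -0.02, 0.25, 0.22 and -0.42.

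The distance between the sterol and fatty acid medians differed between the comparisons. The sterol median minus the fatty acid median was -0.04 in Tw1KD against parental cells, -0.07 without replicate 3 of Tw1KD cells and -0.11 with the mean of all probe sets. It was 0.11, 0.42 and 0.69 in the S42D, S42A and wild-type lines against Tw1KD cells, and the first of these ranged over 0.05 to 0.17, with 0.05 without replicate 2 of Tw1KD cells and 0.17 under quantile normalization. Between forms it was -0.62 in the S42D against the wild-type line, -0.34 in the S42D against the S42A line and -0.13 in the S42A against the wild-type line. The sign of each of these gaps was the same under every alternative setting, and no p is given since the members were chosen with earlier results known.

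Other genes of sterol and fatty acid metabolism were called in both directions. Of 11 other sterol handling genes 4 rose and 4 fell in the S42D line, 3 rose and 3 fell in the S42A line, and 3 rose and 4 fell in the wild-type line, against Tw1KD cells. The shares of all genes called higher and lower in these comparisons, for this and the lists that follow, were 21.7% and 21.7% for S42D, 22.8% and 19.7% for S42A, and 23.5% and 24.5% for the wild-type line. Abca1, which exports cholesterol, was lower in the S42D (-0.65) and wild-type (-0.85) lines and higher in the S42A line (1.12) than in Tw1KD cells. Scarb1 rose in the S42D, S42A and wild-type lines (0.31, 0.47 and 0.55), and Osbp was called lower in all 3. In Tw1KD against parental cells Npc1 rose by 0.95. There 4 of the 11 rose and 3 fell, where 19.9% of all genes were called higher and 16.4% lower. Of 10 genes of the non-sterol mevalonate branches 6 rose and 1 fell in Tw1KD against parental cells, with a median of 0.20, where 19.9% of all genes were called higher and 16.4% lower. Against Tw1KD cells 3 rose and 5 fell in the S42D line, 1 rose and 5 fell in the S42A line, and 2 rose and 3 fell in the wild-type line. Among them Rabggta, a subunit of the Rab prenylating enzyme, was lower in the S42D, S42A and wild-type lines, with differences of -0.90, -1.39 and -1.30. Of 17 other genes of fatty acid synthesis and use 8 rose and 5 fell in the S42D line, 7 rose and 6 fell in the S42A line, and 7 rose and 4 fell in the wild-type line, against Tw1KD cells. Aacs, which makes acetoacetyl-CoA from acetoacetate in the cytosol, rose by 0.43, 1.18 and 1.09 in that order, and the elongation reductase Hsd17b12 by 0.68, 0.79 and 1.02. Acacb, the mitochondrial acetyl-CoA carboxylase, rose in the S42D (1.04) and S42A (1.11) lines and gave 0.04 in the wild-type line, with no call. Elovl7 fell in the S42D, S42A and wild-type lines (-1.44, -0.51 and -0.47). So did Gpam (-0.76, -0.57 and -0.43) and Acsl4 (-0.49, -0.37 and -0.30). Of 4 genes of NADPH supply 1 rose and 1 fell in the S42D and S42A lines, and 1 rose and 3 fell in the wild-type line. Pgd rose in the S42D, S42A and wild-type lines by 0.67, 0.94 and 1.02, while Mthfd2, a folate enzyme of mitochondria, fell in all 3. Tkt (-0.41) and Taldo1 (-0.25) fell in the wild-type line. Of 10 fatty acid oxidation genes 4 rose and 1 fell in the S42D line, 4 rose and 2 fell in the S42A line, and 4 rose and 4 fell in the wild-type line.

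Proliferation genes were also higher in the returns. Their mean level over 9 genes was 11.46 to 11.49 on the S42D arrays, 11.76 to 11.78 on the S42A arrays, 11.86 to 11.89 on the wild-type arrays, 11.07 to 11.15 on the Tw1KD arrays and 11.15 to 11.19 on the parental arrays. Against Tw1KD cells 6 rose and 1 fell in the S42D line, and 9 of 9 rose in the S42A and wild-type lines, with the shares of all genes given above. In Tw1KD against parental cells 3 rose and 3 fell. Between the S42D and wild-type lines 7 of 9 were lower in S42D, with a median of -0.46, where 22.6% of all genes were called lower. The part of proliferation in the levels of the sterol and fatty acid genes was not tested. None of the 5 epithelial markers was dim by line mean, though Epcam lay near the limit in the 3 returns. The mean level over the 5 was 9.50 to 9.52 on the S42D arrays, 8.64 to 8.71 on the S42A arrays and 9.67 to 9.69 on the wild-type arrays. It was 11.47 to 11.65 on the Tw1KD arrays and 10.80 to 10.98 on the parental arrays. Over the 7 fibroblast markers it was 7.62 to 7.79, 7.01 to 7.15, 6.88 to 6.98, 6.69 to 6.89 and 7.41 to 7.47 in the same order of lines, and Lum, a matrix proteoglycan of fibroblasts, was dim in all 5. In the same list the growth factor receptor Pdgfrb averaged 10.55 in the S42D line, 6.86 in the S42A line, 7.93 in the wild-type line, 6.36 in Tw1KD cells and 8.45 in parental cells. Its relative Pdgfra averaged 11.38, 10.85, 9.83, 9.60 and 11.29 in that order. The part of these markers in the results was not tested either.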

How the data were processed

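RNA of 15 samples (5 lines, 3 arrays each) was read on a mouse whole-transcript array. The values analysed are the log2 intensities the authors deposited, 1 per probe set. The tools named in the submitters' processing notes are R 2.10.0 and affy. The background correction and normalization are not given in the sources used here. Samples were grouped by their titles.

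Of 34760 probe sets, 21640 had 1 gene symbol, 1321 several and 11799 none. Genes were read through the brightest probe set by mean over all arrays, which left 19937 genes, 954 of them with several probe sets. Means of the 5 lines were fitted with lmFit and eBayes of limma 3.58.1 in R 4.3.3, without a replicate block, and tested 2-sided with Benjamini-Hochberg adjustment over all 19937 genes at 0.05. Deviations of same-numbered arrays correlated at -0.39 to 0.42. In 3 of 10 comparisons 2 of the 3 pairs exceeded 0.1, in none all 3, so the numbers were not used as pairs.

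The members and gene lists were chosen with earlier results of these data known. Named genes are all members, Twist1 and, from the other lists, up to 3 genes per list and direction with the largest called difference in the depletion and the 3 returns; marker genes are named as such. Within a line the median SD was 0.066 log2 units. The alternatives were median centring, quantile normalization, the mean of all probe sets, leaving out dim genes, a trend with robust eBayes, fits of 2 lines, the replicate block and leaving out each array. The fitting was tested on simulated data. Motifs were searched in RefSeq promoter windows of GRCm38.p6.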

Additional observations from a re-analysis of the deposited data

Results flagged for a closer look

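Ebp, the sterol isomerase, moved in opposite directions in 2 returns of Twist1: against Tw1KD cells it fell by 0.57 with S42A and rose by 0.61 with the wild-type form. The difference between these lines was itself called, at -1.19 (limma, adjusted p = 1.8e-09, n = 3 arrays each). All 3 S42A arrays lay below, and all 3 wild-type arrays above, the Tw1KD arrays. With 3 arrays per line no single array could be set apart from its line.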

How the results depend on the processing

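Across 310 member differences (31 members in 10 comparisons), 276 kept their side of the threshold under every alternative run and 34 changed side under at least 1. No difference that was called as analysed changed sign. The sign of differences that were not called was not followed. Of 4030 recomputed values 3949 kept their call, 47 lost it and 34 gained it. The arm medians moved most with the scaling, and the deposited values carry no record of theirs. Under median centring the fatty acid median became 0.31 in S42D against Tw1KD, 0.45 in wild-type against Tw1KD, -0.25 in S42D against wild-type, -0.36 in S42D against S42A, 0.34 in S42A against parental and 0.32 in wild-type against parental cells. The sterol median became -0.87 in S42D against wild-type, -0.70 in S42D against S42A, 0.67 in S42A against parental and 0.77 in wild-type against parental cells. Under quantile normalization the fatty acid median became 0.26 in S42D, 0.64 in S42A and 0.35 in wild-type against Tw1KD, -0.32 in S42D against S42A, and -0.070 in S42D and 0.17 in wild-type against parental cells. The sterol median became -0.31 in S42D, 0.51 in S42A and 0.57 in wild-type against parental cells. With the mean of all probe sets the sterol median of S42A against wild-type was -0.060. Leaving out 1 array at a time, the sterol median ranged over 0.37 to 0.52 in S42D against Tw1KD and -0.66 to -0.61 in S42D against S42A. Median centring shifts all genes of an array alike, so each arm median moved by the shift of all genes in its comparison. That shift was -0.095 in S42D against wild-type and 0.10 in wild-type against parental cells. The cause of the other moves was not tested.

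Over all genes, median centring changed the percent of calls that were higher to 65.2 against 54.8 as analysed for Tw1KD against parental cells, 39.5 against 50.0 for S42D against Tw1KD, 33.2 against 47.9 for S42D against wild-type, 30.0 against 47.2 for S42D against S42A, 71.7 against 56.1 for S42A against parental and 68.4 against 51.0 for wild-type against parental cells. It shifted the median of all genes by at most 0.10. The replicate block, which rests on numbers that are not known to pair the samples, kept 308 of 310 member calls. It lost Dhcr7 in wild-type against parental (-0.11) and Insig1 in S42D against parental cells (0.13). Median centring ended 6 member calls, those of Acly in S42D against Tw1KD (0.11), Cyp51 (-0.26) and Insig1 (0.13) in S42D against parental, Me1 in S42A against parental (-0.11), and Dhcr7 (-0.011) and Insig1 (-0.072) in wild-type against parental cells. It added 6, those of Mvd in S42D against Tw1KD (-0.24), Pmvk (-0.23), Acly (-0.14) and Fads1 (-0.16) in S42D against wild-type, Srebf1 in S42A against parental (0.14) and Acly in wild-type against parental cells (0.21). Members called in S42D against parental cells numbered 17 to 20 with 1 array left out, against 21 with all. With 3 arrays a line, small differences cannot be resolved.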
